A study of Homo sapiens with 11 samples.

Results

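A set of 10 secreted factors that act on bone and on osteoclasts were followed in prostate cancer cells: CSF1, IL34, CSF2, PTHLH, IL11, INHBA, TNFSF11, TNFRSF11B, DKK1 and SPP1. They were chosen by name for their known roles, with earlier results of these data known, and are 10 of the 28395 genes listed in the count tables. RNA-Seq was carried out on PC3 cells, a line established from a bone metastasis of prostate cancer, and DU145 cells, a line established from a brain metastasis. Each line had been transduced at a multiplicity of infection of 5 with a lentivirus carrying the open reading frame of ST6GAL1 (hereafter overexpression) or with control lentiviral particles, and stable populations were kept. ST6GAL1 is the sialyltransferase that adds α2-6 linked sialic acid to N-glycans. The libraries were 3 PC3 control, 3 PC3 overexpression, 3 DU145 control and 2 DU145 overexpression, the last being replicates 2 and 3. All 4 groups carry a lentivirus, so that no group is untransduced, and all are cultured lines without bone or myeloid cells. Libraries of a group are labelled as biological repeats, and whether they came from separate transductions is not given in the sources used here, so p-values measure the spread between these libraries.

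Osteoclasts form from myeloid precursors that need CSF1 for survival and RANKL, the product of TNFSF11, for differentiation. Osteoprotegerin, the product of TNFRSF11B, is a decoy that binds RANKL. Tumour cells in bone are known to act on this axis through parathyroid hormone-related protein (PTHLH) and IL11, which raise RANKL on osteoblast-lineage cells, and on osteoblasts through DKK1, a secreted inhibitor of WNT signalling. Activin A, the dimer of INHBA subunits, and osteopontin (SPP1), a matrix glycoprotein to which osteoclasts attach, act on the same cells.

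Total counts on genes were 15255634 to 17758666 in PC3 control, 14737057 to 18201359 in PC3 overexpression, 13194485 to 15795095 in DU145 control, and 15762540 and 18082248 in DU145 overexpression. Levels are given as CPM, counts divided by the library size after TMM scaling, as mean ± SD. ST6GAL1 itself rose from 2.71 ± 0.538 CPM (SD, n = 3) to 32.5 ± 0.811 (SD, n = 3) in PC3 and from 12.9 ± 1.46 (SD, n = 3) to 322.5 ± 33.9 (SD, n = 2) in DU145, with no overlap of the groups in either line. The epithelial markers EPCAM, KRT8 and KRT18 were read in every library. The 8 epithelial and line markers together were lower with overexpression in both lines, without overlap, at 524.9 to 543.2 CPM in PC3 control and 494.0 to 498.9 in PC3 overexpression, and at 1696 to 1742 in DU145 control and 1524 to 1584 in DU145 overexpression, and the part of this in the results was not tested. KRT8 fell in both lines (log2 fold change -0.21 in PC3, edgeR adjusted p = 3.93e-08, and -0.27 in DU145, edgeR adjusted p = 0.0323), and in DU145 also KRT18 (-0.25, edgeR adjusted p = 0.0260) and EPCAM (-0.35, edgeR adjusted p = 0.0219), all under the fold change threshold. The gene CTNNA1, which is deleted in PC3, was at 1.25 CPM in PC3 control against 568.1 CPM in DU145 control, and KLK3 was at 0 in all 11 libraries. Of the 9 myeloid and osteoclast markers TYROBP, ACP5 and DCSTAMP were at 0 in all libraries, and the summed level of the list was 20.9 to 23.1 CPM in PC3 control, 20.8 to 22.8 in PC3 overexpression, 56.4 to 62.0 in DU145 control and 54.4 to 57.4 in DU145 overexpression, nearly all of it CD68. The 10 osteoblast and fibroblast markers summed to 37.3 to 38.8 CPM in PC3 control, 36.9 to 41.6 in PC3 overexpression, 7.40 to 10.3 in DU145 control and 5.35 to 9.37 in DU145 overexpression. In bulk RNA, fewer cells expressing a gene and less RNA per cell cannot be told apart.

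In PC3, the members that passed a test were lower with ST6GAL1 overexpression, apart from a small rise of DKK1. Of 7 members tested, PTHLH, INHBA and CSF2 were called lower, at an adjusted p under 0.05 with an absolute log2 fold change over 0.58 (edgeR quasi-likelihood test), and none was called higher, beside 5.38% of all 13544 genes called, 3.61% higher and 1.76% lower. At any fold change 6 of the 7 passed, beside 37.3% of all genes. CSF2 passed the filter on low counts only through the control libraries, where it is higher, so its call was partly set in advance. With at least 10 counts in every library, 2 of 6 members tested were called, beside 594 of 12944 genes. In DU145, 2 of 5 members tested were called, CSF1 higher and IL11 lower, beside 8.94% of 13676 genes called, 4.33% higher and 4.61% lower. IL34 and TNFSF11 passed the filter on low counts in neither line, SPP1 did not pass it in PC3, and CSF2, INHBA and TNFRSF11B did not pass it in DU145.

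**Figure D1:**
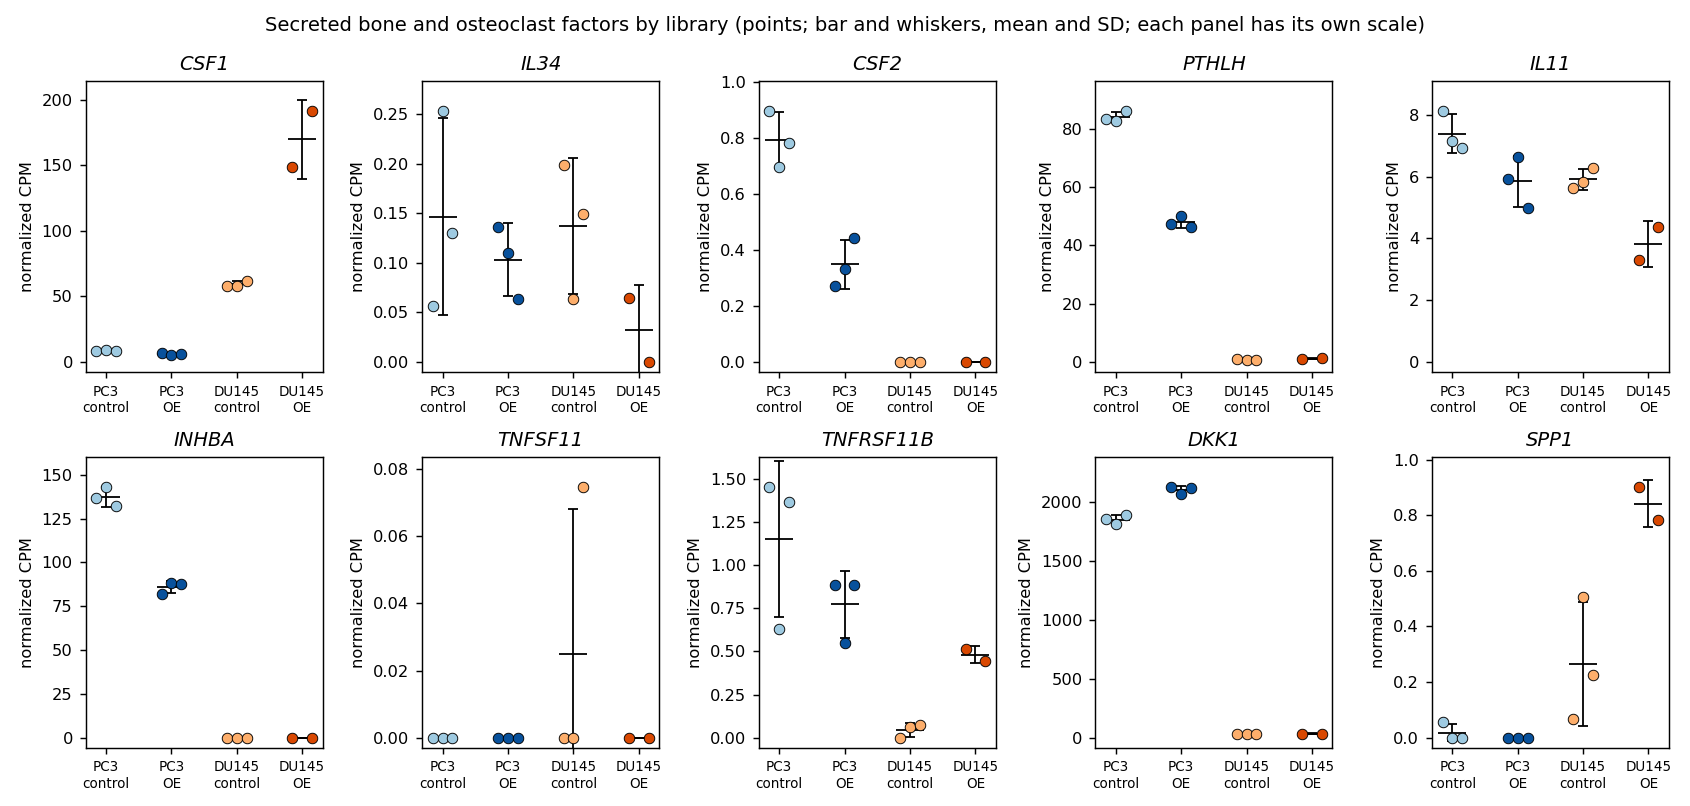
Normalized CPM of each member in each library (points), with the mean and SD of the group (bar and whiskers), for PC3 and DU145 control and ST6GAL1 overexpression (OE). CSF1 is at 148.7 and 191.3 CPM in DU145 overexpression, above every other library, while INHBA and CSF2 are at 0 in all 5 DU145 libraries.

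CSF1, also called macrophage colony stimulating factor, lies on chromosome 1 from 109910506 to 109930992 (RefSeq genes on GRCh38, as for all coordinates here). It was counted 150, 148 and 128 times in the PC3 control libraries and 97, 96 and 101 times in PC3 overexpression. In DU145 it was counted 877, 911 and 826 times in control and 2307 and 3428 times in overexpression. The groups did not overlap in either line, and they stood in opposite order. In PC3 the level went from 8.70 ± 0.570 CPM (SD, n = 3) to 6.09 ± 0.697 (SD, n = 3), with a change of -0.52 on the log2 scale (standard error 0.117, edgeR adjusted p = 0.000398), or 1.44-fold lower, under the fold change threshold. In DU145 it went from 59.2 ± 2.26 CPM (SD, n = 3) to 170.0 ± 30.1 (SD, n = 2), with a change of 1.53 on the log2 scale (standard error 0.0995, edgeR adjusted p = 1.02e-06), or 2.89-fold higher. The change in DU145 exceeded that in PC3 by 2.05 on the log2 scale (standard error 0.165, edgeR adjusted p = 1.29e-07 for the interaction). These are RNA levels and do not measure secreted protein. By ELISA, the paper reports more CSF1 protein in medium conditioned by PC3 cells with overexpression.

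The overexpression libraries of DU145 differed from each other with GC content: replicate 3 minus replicate 2 had a median log2 difference of -0.15 over genes of the lowest GC decile and 0.54 over those of the highest. CSF1 has 59.2% GC in its exons and falls in GC decile 9, where that median was 0.33. With the GC trend of each library removed, the log2 fold change of CSF1 in DU145 was 1.69, and it was 1.34 to 1.69 when each library was left out in turn. Among the 50 tested genes around CSF1, 25 on each side, the median log2 fold change was -0.01 in PC3 and -0.03 in DU145.

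IL34, the other ligand of the CSF1 receptor, was counted at most 4 times in any library. CSF2, or granulocyte-macrophage colony stimulating factor, was counted 16, 11 and 12 times in PC3 control and 4, 6 and 7 times in PC3 overexpression, and not once in DU145. All 3 PC3 overexpression libraries were below all 3 controls for CSF2. CSF2 passed the filter only through those controls, so this order was partly set in advance. Its level went from 0.791 ± 0.100 CPM (SD, n = 3) to 0.348 ± 0.0862 (SD, n = 3), with a change of -1.17 on the log2 scale (standard error 0.402, edgeR adjusted p = 0.0193). At these counts the call was lost with DESeq2 (adjusted p = 0.125), in the fit of all 11 libraries (edgeR adjusted p = 0.0535) and without PC3 control replicate 1 (edgeR adjusted p = 0.0802), PC3 overexpression replicate 1 (edgeR adjusted p = 0.0755) or PC3 overexpression replicate 2 (edgeR adjusted p = 0.0690).

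The factors that act on osteoblast-lineage cells and raise bone resorption came next. PTHLH, on chromosome 12 from 27958084 to 27972733, was counted 1491, 1306 and 1320 times in PC3 control and 698, 907 and 734 times in PC3 overexpression. It had the smallest adjusted p of the members in PC3: 84.0 ± 1.81 CPM (SD, n = 3) against 47.9 ± 1.89 (SD, n = 3), with a change of -0.81 on the log2 scale (standard error 0.0432, edgeR adjusted p = 4.36e-19), or 1.75-fold lower. The groups were far apart beside their spread. In DU145 PTHLH was counted 17, 10 and 10 times in control and 16 and 24 times in overexpression, and the ranges overlapped. The log2 fold change there was 0.52 (95% interval -0.27 to 1.30, edgeR adjusted p = 0.359). The difference between the lines was 1.32 (standard error 0.291, edgeR adjusted p = 0.00296), and the call was lost without DU145 overexpression replicate 3 (edgeR adjusted p = 0.0517).

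INHBA, on chromosome 7 from 41685114 to 41705406, was counted 2443, 2264 and 2027 times in PC3 control, 1209, 1603 and 1385 times in PC3 overexpression and 0 times in every DU145 library. Its level in PC3 went from 137.3 ± 5.52 CPM (SD, n = 3) to 86.0 ± 3.31 (SD, n = 3), with a change of -0.67 on the log2 scale (standard error 0.0372, edgeR adjusted p = 1.29e-18), or 1.59-fold lower. With 0 counts in DU145, no change could be fitted there and none compared between the lines. The antisense gene INHBA-AS1 overlaps INHBA and held 67 counts in all, and its part in the counts of INHBA was not tested. INHBB, which encodes the other activin subunit, followed the same course: it was at 132.9 ± 4.44 CPM (SD, n = 3) in PC3 control and 71.2 ± 3.56 (SD, n = 3) in overexpression (log2 fold change -0.90, edgeR adjusted p = 1.92e-22), and at 0 in DU145. FST, the activin-binding inhibitor follistatin, moved the other way, from 734.7 ± 13.5 to 827.7 ± 18.1 CPM (log2 fold change 0.17, edgeR adjusted p = 2.19e-07), under the fold change threshold. FST was singled out after its values were seen, as were TNFRSF11A, CSF1R and ADAM17, which are named further on.

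IL11, on chromosome 19 from 55364382 to 55370463, was read at similar levels in PC3 and DU145 control cells (7.39 ± 0.639 and 5.91 ± 0.339 CPM, SD, n = 3 each). It was counted 145, 113 and 106 times in PC3 control and 87, 120 and 79 times in PC3 overexpression, and in DU145 85, 92 and 84 times in control against 51 and 78 times in overexpression. In CPM the groups did not overlap in either line: the PC3 overexpression libraries reached 6.62 CPM and the lowest PC3 control was at 6.91 CPM, and the DU145 overexpression libraries reached 4.35 CPM where the lowest control was at 5.61 CPM. The log2 fold change was -0.34 in PC3 (standard error 0.125, edgeR adjusted p = 0.0309), under the fold change threshold, and -0.61 in DU145 (standard error 0.183, edgeR adjusted p = 0.0291). The difference between the lines was -0.28 (95% interval -0.73 to 0.17, edgeR adjusted p = 0.407). The DU145 call was lost with DESeq2 (adjusted p = 0.119), with the GC trend removed (log2 fold change -0.53), and without DU145 control replicate 1 (edgeR adjusted p = 0.0793), 2 (0.110) or 3 (0.101) or overexpression replicate 2 (0.129). IL11 lies among genes that were lower as well: the 50 tested neighbours had a median log2 fold change of -0.21 in DU145, and the part of this in the result was not tested. In PC3 the median of the neighbours was 0.05.

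Of the members that were lower in PC3, 4 have a promoter entry in RefSeq: CSF2, PTHLH, IL11 and INHBA. The 250 bases before the start are shown for them, to let the sequences of members that fell in the same cells be compared, on GRCh38.p14: chr5:132073539-132073788 on the plus strand (CSF2), chr12:27969977-27970226 on the minus strand (PTHLH), chr19:55370464-55370713 on the minus strand (IL11) and chr7:41703091-41703340 on the minus strand (INHBA). The PTHLH and INHBA entries belong to starts inside the annotated gene. Capitals mark matches on either strand. The motifs searched were AP-1 with the letters TGANTCA, the cyclic AMP response element (CRE) with the letters TGACGTCA, the TATA box with the letters TATAAA, and the NF-kappa-B motif, and no printed match overlapped another.
CSF2: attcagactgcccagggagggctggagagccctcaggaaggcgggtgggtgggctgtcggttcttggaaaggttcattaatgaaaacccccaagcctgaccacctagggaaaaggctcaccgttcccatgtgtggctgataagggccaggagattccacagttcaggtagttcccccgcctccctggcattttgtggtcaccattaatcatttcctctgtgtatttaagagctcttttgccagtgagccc
PTHLH: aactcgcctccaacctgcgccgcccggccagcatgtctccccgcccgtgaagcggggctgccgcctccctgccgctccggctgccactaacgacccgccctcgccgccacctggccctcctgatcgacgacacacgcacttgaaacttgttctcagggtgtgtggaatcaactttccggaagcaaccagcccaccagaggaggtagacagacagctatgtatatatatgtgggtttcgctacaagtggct
IL11: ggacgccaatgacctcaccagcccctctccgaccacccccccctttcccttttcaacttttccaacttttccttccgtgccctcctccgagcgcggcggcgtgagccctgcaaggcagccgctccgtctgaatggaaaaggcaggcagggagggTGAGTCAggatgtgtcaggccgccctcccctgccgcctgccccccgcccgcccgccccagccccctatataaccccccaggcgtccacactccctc
INHBA: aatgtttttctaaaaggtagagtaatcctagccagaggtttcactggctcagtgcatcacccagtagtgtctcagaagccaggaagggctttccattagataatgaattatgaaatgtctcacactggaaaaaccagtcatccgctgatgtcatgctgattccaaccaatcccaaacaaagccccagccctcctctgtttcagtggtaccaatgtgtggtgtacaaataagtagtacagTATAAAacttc

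IL11 held an AP-1 match from 96 to 90 bases before the start, and 6.57% of all 35116 promoter windows held a match to this motif. INHBA held a TATA box match from 11 to 6 bases before the start, and 10.7% of the windows did. CSF2 and PTHLH held none of the 4 motifs, so the 4 promoters shared no match. Of the members not printed, DKK1 held a TATA box match from 30 to 25 bases before the start, SPP1 held no match, and of the windows of TNFSF11 the second held a TATA box match from 30 to 25 bases and an NF-kappa-B match from 176 to 167 bases before the start. The CRE motif was found in 1.65% and the NF-kappa-B motif in 9.96% of all windows. These matches describe letters and not binding.

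RANKL and its decoy were both scarce. TNFSF11 was counted 1 time, in DU145 control replicate 3, and 0 times in the other 10 libraries, where a count of 0 over a group allows up to 3 counts. TNFRSF11B, on chromosome 8 from 118923557 to 118951885, was counted 26, 10 and 21 times in PC3 control and 13, 10 and 14 times in PC3 overexpression. These ranges overlapped (log2 fold change -0.60, 95% interval -1.27 to 0.06, edgeR adjusted p = 0.152), although without PC3 control replicate 2 the change was -0.89 (edgeR adjusted p = 0.0302). In DU145 it was counted 0, 1 and 1 times in control and 8 times in each overexpression library, a ratio of 10.4 (exact 95% interval 2.45 to 93.4, for counting error only). TNFRSF11B did not pass the filter in the fit of DU145 alone, and was called there without a filter (log2 fold change 3.19, edgeR adjusted p = 0.0112). In the fit of all libraries its change differed between the lines by 3.80 (standard error 0.905, edgeR adjusted p = 0.00537). TNFRSF11A, the RANKL receptor, was read at 148.3 ± 2.39 CPM (SD, n = 3) in PC3 control and 17.8 ± 0.908 (SD, n = 3) in DU145 control, and no change past the fold threshold was found in either line.

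DKK1, on chromosome 10 from 52314281 to 52317657, was the most abundant member in PC3. It was counted 33166, 28649 and 28989 times in PC3 control and 31327, 37460 and 33591 times in PC3 overexpression. After scaling, every PC3 overexpression library (2065 to 2130 CPM) was above every control (1811 to 1890 CPM). The log2 fold change was 0.19 (standard error 0.0230, edgeR adjusted p = 1.46e-08), or 1.14-fold, well under the fold change threshold. In DU145 it was counted 527, 558 and 420 times in control and 498 and 628 times in overexpression, with overlapping ranges. The change there was -0.01 (95% interval -0.22 to 0.21, edgeR adjusted p = 0.969), and the difference between the lines was -0.20 (95% interval -0.37 to -0.02, edgeR adjusted p = 0.103). PRKG1-AS1, an antisense gene that overlaps DKK1, held 371 counts over the 11 libraries.

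SPP1, on chromosome 4 from 87975714 to 87983411, was counted 1, 8 and 3 times in DU145 control and 14 times in each DU145 overexpression library. In PC3 it was counted 1 time, in control replicate 1. In DU145 SPP1 passed the filter only through the overexpression libraries, where it is higher, so a rise there was partly set in advance. The DU145 groups did not overlap, but the counts were few: the ratio was 3.04 (exact 95% interval 1.50 to 6.56, for counting error only) and the log2 fold change 1.61 (standard error 0.569, edgeR adjusted p = 0.0614). SPP1 was called with limma-voom (adjusted p = 0.0412), without a filter (edgeR adjusted p = 0.0400), in the fit of all 11 libraries (edgeR adjusted p = 0.0375) and with the GC trend removed (edgeR adjusted p = 0.0493), and was not called with DESeq2 (adjusted p = 0.258), RLE factors (edgeR adjusted p = 0.0642) or the replicate block (edgeR adjusted p = 0.107). No fit with a library left out called it (edgeR adjusted p from 0.0516 to 0.212), and the change was 2.50 without DU145 control replicate 2 and 1.13 without DU145 control replicate 1.

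**Figure D2:**
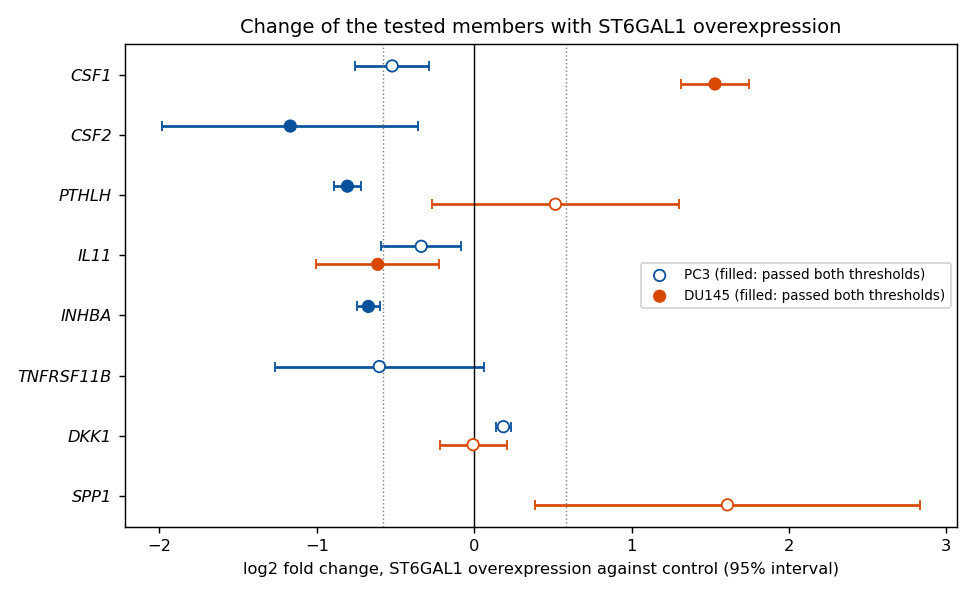
Log2 fold change of the members with a fit in PC3 (blue) or DU145 (orange), overexpression against control, with 95% intervals; filled points passed both thresholds and dotted lines mark a log2 fold change of 0.58 either way. CSF1 is at -0.52 in PC3 and 1.53 in DU145, with intervals that do not overlap.

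The difference between the lines was tested for 8 members, and 3 were called, CSF1, PTHLH and TNFRSF11B, all with the higher change in DU145, beside 8.72% of 14952 genes called 3.86% in that direction and 4.86% in the other. CSF2 and INHBA were among the 8, but their 0 counts in DU145 leave their differences untested. SPP1, with 1 count in PC3, had a difference of 3.45 (standard error 2.33, edgeR adjusted p = 0.334).

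The lines differed far more than the arms of a line. Between PC3 control and DU145 control 7 of 8 members tested were called, 5 higher and 2 lower in PC3. That stood beside 64.9% of all genes called, 33.2% higher and 31.7% lower. INHBA and CSF2 had 0 counts in DU145, TNFRSF11B had 2 in DU145 control and SPP1 had 1 in PC3 control. These members passed the filter only through the line where they are higher, so their calls were largely set in advance. With at least 10 counts in every library, 3 of 4 members tested were called, beside 6860 of 11727 genes. The line cannot be told apart from anything that was done per line. PTHLH was higher in PC3 by 6.64 on the log2 scale (standard error 0.117, edgeR adjusted p = 2.61e-20), or 99.6-fold, and DKK1 by 5.77 (standard error 0.0613, edgeR adjusted p = 1.68e-23), or 54.6-fold. INHBA was at least 2031-fold and CSF2 at least 11.8-fold higher in PC3, taken against a floor of 3 counts over the DU145 control group. TNFRSF11B was higher in PC3 by 4.46 (standard error 0.641, edgeR adjusted p = 2.37e-06), a ratio of counts of 25.8 (exact 95% interval 6.82 to 218.1). CSF1 went the other way and was 6.80-fold lower in PC3 (log2 fold change -2.76, edgeR adjusted p = 5.02e-14). SPP1 was also lower in PC3 (log2 fold change -3.30, edgeR adjusted p = 0.00865), and without DU145 control replicate 2 the call was lost (edgeR adjusted p = 0.0864). IL11 differed by 0.33 (edgeR adjusted p = 0.0292), under the fold change threshold.

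Per kilobase of merged exons, DKK1 was at 834.0 ± 17.7 CPM per kb in PC3 control, a level that 99.97% of the 25967 genes with a length were at or below. PTHLH followed at 24.7 ± 0.532, INHBA at 16.6 ± 0.667, IL11 at 2.76 ± 0.239, CSF1 at 1.66 ± 0.109, CSF2 at 1.00 ± 0.127 and TNFRSF11B at 0.459 ± 0.180 CPM per kb (SD, n = 3 each). No neighbours in this order overlapped between libraries. The order was the same in PC3 overexpression, where CSF2 (0.345 to 0.561) and TNFRSF11B (0.219 to 0.352) overlapped. In DU145 control the order was DKK1 at 15.2 ± 0.970, CSF1 at 11.3 ± 0.431, IL11 at 2.21 ± 0.127 and PTHLH at 0.245 ± 0.0751 CPM per kb (SD, n = 3 each), with IL34, SPP1 and TNFRSF11B overlapping below them. In DU145 overexpression CSF1 (28.4 and 36.5 CPM per kb) stood above DKK1 (14.4 and 15.8 CPM per kb), so that their order was exchanged.

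**Figure D3:**
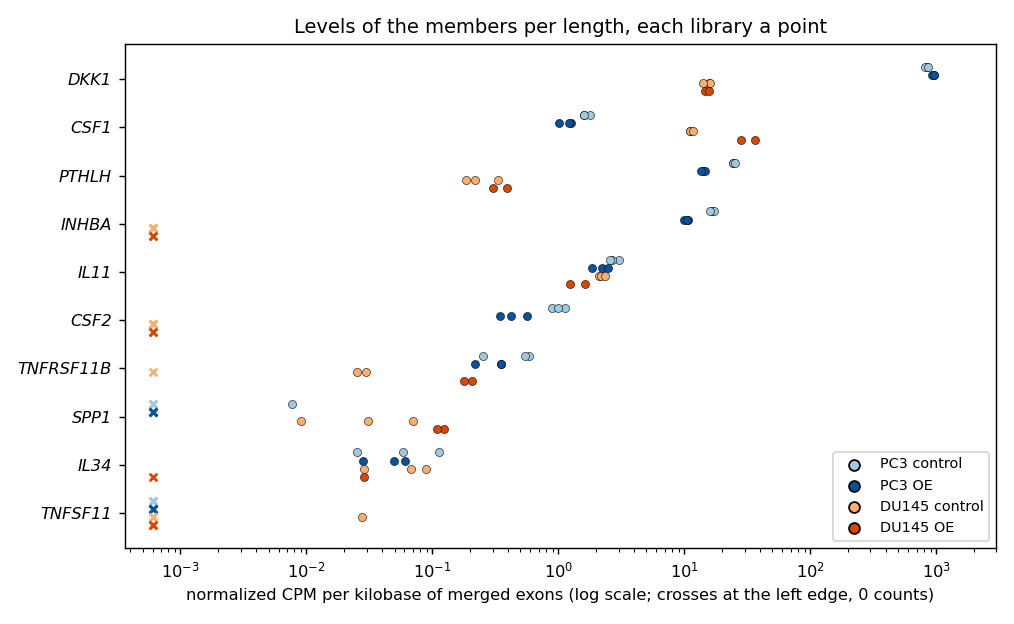
Level of each member in each library, in normalized CPM per kilobase of merged exons on a log scale, coloured by group, with crosses at the left edge for libraries at 0 counts. DKK1 in PC3, at 834.0 CPM per kb in control, is far to the right of every other member.

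The cells' own receptors for these factors were described from a list of 27 receptors, binding proteins and regulators. In PC3, 0 of 20 tested were called higher and 2 lower, INHBB and ITGB3 (log2 fold change -0.71, edgeR adjusted p = 2.84e-07), or 10% beside 5.38% of all genes, with a median of 0.04 beside 0.00. ITGB3 is a subunit of the integrin through which osteopontin is bound. In DU145, 2 of 20 were called higher and 2 lower, or 20% beside 8.94% of all genes, with a median of 0.12 beside 0.00. CD44, another osteopontin receptor, went from 137.1 ± 3.50 CPM (SD, n = 3) to 248.4 ± 14.3 (SD, n = 2; log2 fold change 0.86, edgeR adjusted p = 2.36e-06), and ITGB3 from 22.2 ± 0.910 to 35.0 ± 0.855 CPM (0.66, edgeR adjusted p = 0.000309). The receptors of 2 members fell: PTH1R, which binds the PTHLH product, from 5.40 ± 0.0992 to 2.25 ± 0.448 CPM (log2 fold change -1.24, edgeR adjusted p = 0.000560), and IL11RA from 16.5 ± 0.455 to 9.20 ± 1.98 CPM (-0.83, edgeR adjusted p = 0.00102). CSF1R, the receptor of CSF1 and IL34, held 7 counts in DU145 control and overexpression together and 0 in PC3.

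A list of 6 genes of ligand shedding held the proteases ADAM10, ADAM17, MMP7 and MMP14 and the inactive rhomboids RHBDF1 and RHBDF2, which regulate ADAM17, and 5 of the 6 were tested in each line. At both thresholds 0 were called in either line by edgeR, DESeq2 or limma-voom, beside 5.38% of all genes in PC3 and 8.94% in DU145 by edgeR. At an unadjusted p under 0.05 in edgeR 3 of 5 passed in each line, and the share of all genes that did was not counted. The directions were mixed, with 2 of the 5 higher and 3 lower in PC3, and 3 higher and 2 lower in DU145. ADAM17, which sheds CSF1, had a log2 fold change of 0.25 in DU145 (edgeR adjusted p = 0.0317) and -0.05 in PC3 (edgeR adjusted p = 0.459). Its regulators went the other way in DU145, RHBDF1 at -0.44 (edgeR adjusted p = 0.0678) and RHBDF2 at -0.39 (edgeR adjusted p = 0.0496). In PC3 RHBDF1 was at 0.23 (edgeR adjusted p = 0.000434) and RHBDF2 at -0.15 (edgeR adjusted p = 0.00208). Of 12 secreted WNT antagonists other than DKK1, 1 was tested in PC3 and was not called. Of the 3 tested in DU145, NOTUM, an extracellular enzyme that inactivates WNT proteins, was called lower (3.46 ± 0.483 against 0.784 ± 0.470 CPM, log2 fold change -2.09, edgeR adjusted p = 0.000419). Its log2 fold change was -2.90 without DU145 overexpression replicate 3 and -1.63 without replicate 2, and the call was kept in both. No relative of SPP1 among DMP1, DSPP and MEPE passed the filter.

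Of 35 other factors known from bone metastasis, mostly secreted, 24 were tested in PC3, with 5 called higher and 6 lower. That was 45.8% beside 5.38% of all genes, with a median log2 fold change of 0.03 beside 0.00. The matrix genes and proteases SPARC (log2 fold change 2.29, edgeR adjusted p = 2.51e-17), MMP1 (1.71, 3.72e-19) and MMP13 (1.64, 3.81e-25) rose. The chemokine CXCL8 (-1.30, 8.22e-27), the plasminogen activator PLAU (-0.73, 8.22e-27) and TGFB2 (-0.60, 3.67e-13) fell. In DU145, 20 were tested, with 5 called higher and 2 lower, or 35.0% beside 8.94% of all genes, and a median of 0.26 beside 0.00. LOX, which crosslinks collagen (log2 fold change 1.46, edgeR adjusted p = 8.35e-05), TGFB2 (0.79, 0.000112) and VEGFA (0.70, 1.08e-05) rose, and the growth factors PDGFA (-1.98, 3.20e-06) and BMP4 (-1.64, 0.0242) fell. BMP4 was counted 12 to 16 times in DU145 control libraries and 4 and 6 times in overexpression. It passed the filter there only through the control libraries, so its fall was partly set in advance. The BMP4 call was lost with DESeq2 (adjusted p = 0.130) and on leaving out DU145 control replicate 1 (edgeR adjusted p = 0.0867), 2 (0.0510) or 3 (0.0651) or overexpression replicate 2 (0.0983), and that of TGFB2 in PC3 without PC3 control replicate 1 (log2 fold change -0.56) and with the GC trend removed (-0.58).

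**Figure D4:**
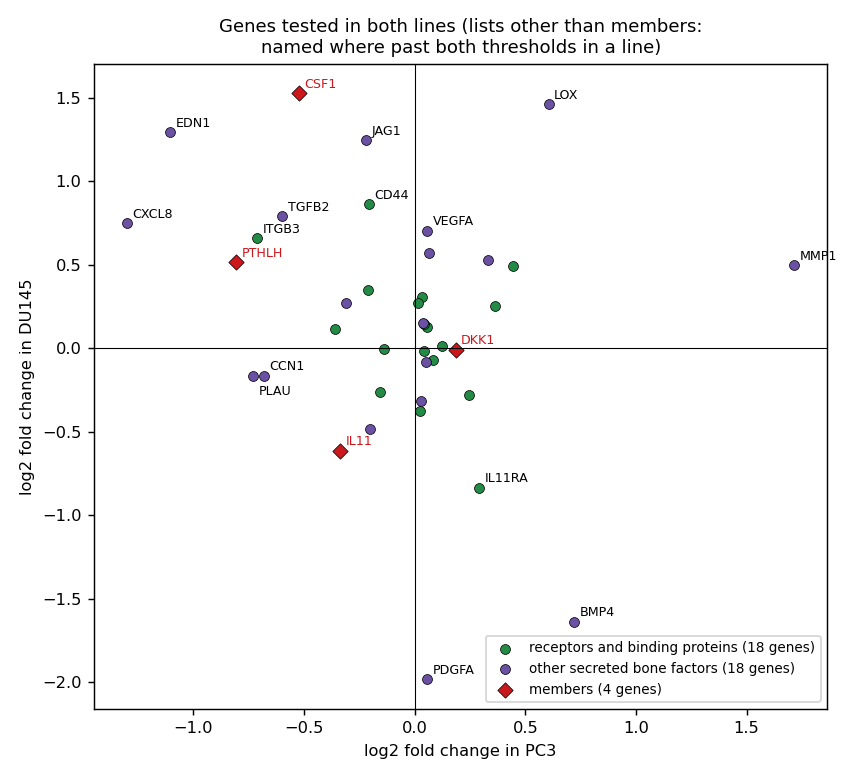
Log2 fold change with overexpression in PC3 (x axis) and DU145 (y axis) of genes tested in both lines. They are 18 receptors and binding proteins, 18 other factors of bone metastasis and 4 members. CSF1, TGFB2 and ITGB3 lie in the upper left, lower in PC3 and higher in DU145, and IL11 lies in the lower left.

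Over the 11 libraries, the genes whose log2 CPM ran most nearly parallel to a member were PHGDH and RHOBTB3 for CSF1 (Pearson's r of 0.997 for both), TOP1MT (0.9991) and FGF5 (0.9982) for PTHLH, ABT1 and PDLIM2 for IL11 (0.944 for both), PDE1C and CTTNBP2 for INHBA (0.9999 for both), and PTPRD (0.9999) and DMD (0.9998) for DKK1. These values are a description over 12361 genes, and the gap between the lines sets most of them. PDLIM2 went from 24.8 to 14.9 CPM in PC3 and from 19.3 to 8.59 CPM in DU145.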

How the data were processed

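RNA was extracted with the RNEasy kit, and libraries were made with the TruSeq Stranded mRNA kit and sequenced as 75 bp single reads. Per the labels and the methods, the authors worked in Galaxy 22.01, where Cutadapt trimmed the reads, HISAT2 aligned them to hg38 and featureCounts gave the count per gene. The authors deposited raw counts per gene without normalization. The annotation and the strand setting used for counting are not given in the sources used here, so a gene and its antisense partner may share reads.

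From the counts, edgeR 4.0.16 in R 4.3.3 was used with filterByExpr, TMM factors and the robust quasi-likelihood test, each line separately, and over all 11 libraries for the interaction and the comparison of the lines, with Benjamini-Hochberg adjustment over all genes tested. Ratios of small counts have exact intervals for counting error only. Alternatives were limma-voom (limma 3.58.1), DESeq2 1.42.0, RLE factors, no filter, at least 10 counts in every library, a replicate block, all libraries in 1 fit, any fold change and each library left out. Removal of the GC trend was chosen after seeing the data. Scripts were tested on simulated data. Replicates of a group all differed by more than counting noise, so none was taken as the same library sequenced again. The mean chi-square per gene was lowest between PC3 overexpression libraries, at 1.39 to 1.50, where counting noise alone gives 1. This cannot tell repeat preparations of the same cells from separate cultures.

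The members and lists were chosen with earlier results of these data known. Named were all members, ST6GAL1, up to 3 called genes per list, line and direction, 2 genes most like each member with a mean of at least 1 CPM, and overlapping genes. Promoters are RefSeq windows on GRCh38.p14 (7 of 10 members matched, CSF1, IL34 and TNFRSF11B not), searched over the 250 bases before the start. Glycosylation sites in the proteins were not analysed here.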

Additional observations from a re-analysis of the deposited data

Results flagged for a closer look

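The change with overexpression differed between DU145 and PC3 for the genes that follow, by an interaction term over all 11 libraries (edgeR adjusted p under 0.05). Of all 14952 genes tested, 2949 passed this threshold. The genes were looked for among the members, ST6GAL1, the genes named by the rule and some others. The list is therefore not complete, and IL6ST, CCN1 and ITGB5 are among the further genes that passed. Each value is the change in DU145 less the change in PC3, on the log2 scale, followed by its edgeR adjusted p. Among the members it was 2.05 for CSF1 (1.29e-07), 1.32 for PTHLH (0.00296) and 3.80 for TNFRSF11B (0.00537). For TNFRSF11B it rests on 2 counts in DU145 control. The targeted gene itself differed, at 1.06 for ST6GAL1 (0.000286). Among receptors it was 1.06 for CD44 (1.34e-09), 1.37 for ITGB3 (5.50e-07), -1.13 for IL11RA (5.54e-05) and -2.19 for PTH1R (0.0486). For PTH1R it rests on 4 counts in PC3 control and 8 in PC3 overexpression. Among the other factors with the higher change in DU145 it was 1.38 for TGFB2 (1.76e-08), 2.04 for CXCL8 (2.04e-06), 0.85 for LOX (0.00706) and 0.64 for VEGFA (6.67e-06). It was also 2.39 for EDN1 (0.000371), 1.46 for JAG1 (1.42e-07) and 0.56 for PLAU (2.88e-06). Among those with the lower change in DU145 it was -2.05 for PDGFA (9.52e-07), -2.36 for BMP4 (0.00338), -1.22 for MMP1 (0.00889) and -1.80 for NOTUM (0.0127). For BMP4 it rests on 10 counts in DU145 overexpression. It was -5.32 for FST (0.00177), a fitted value that rests on 12 counts in DU145 control and 0 in DU145 overexpression. It was 0.29 for ADAM17 (0.0167), -0.67 for its regulator RHBDF1 (0.00825), -0.48 for EPCAM (0.00538) and -0.27 for KRT18 (0.00576). PLAU, ADAM17, EPCAM and KRT18 lie under the fold change threshold of 0.58.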

How the results depend on the processing

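Of 771 comparisons with the main fit for the named genes, 738 kept their direction and their side of the thresholds, 10 gained a call, 20 lost one and 3 changed sign. For each result they include the main value itself judged without the fold change threshold. That value could gain a call but could not lose one or change sign. Those 3 were all DKK1 in DU145, near 0 throughout: 0.014 with the replicate block, 0.0077 without DU145 control replicate 2 and 0.041 without DU145 overexpression replicate 2, with -0.071 to 0.041 over all left-out libraries. At any fold change, 5056 genes and 6 members were called in PC3, 2747 genes in DU145, and 2949 genes for the difference between the lines. In DU145, 1 of 5 members tested was called with DESeq2, beside 962 of 13676 genes. Without a filter 4 of 8 members tested were called, beside 1339 of 18803 genes. In the fit of all 11 libraries 4 of 8 were called, beside 1437 of 14952 genes. TNFRSF11B and SPP1 were added in both. With at least 10 counts in every library, 3 members were called between the lines, since fewer were tested. Leaving out each library gave 670 to 798 genes and 2 to 4 members in PC3, 830 to 2072 genes and 1 to 2 members in DU145, 1148 to 2270 genes and 2 to 3 members for the difference, and 9527 to 9930 genes and 6 to 7 members between the lines. The highest counts for DU145 and for the difference came without DU145 overexpression replicate 3, and not without replicate 2. Either fit leaves that arm with 1 library assumed to vary like the others, and why the fits differed was not tested.

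Deviations of same-numbered PC3 libraries correlated at -0.016, 0.012 and 0.045, beside -0.042 to 0.029 for the other PC3 pairs, with no sign of pairing. In DU145 the same-numbered libraries correlated at 0.062 and 0.238. The deviations of the 2 DU145 overexpression libraries are mirror images of each other, so pairing could not be decided there. With the replicate block 740 genes were called in PC3, 1517 in DU145 and 1452 for the difference, with 3, 2 and 3 members. Without the block the counts of genes were 728, 1222 and 1304. Genes with few counts (CSF2, TNFRSF11B, SPP1, IL34 and TNFSF11) are limited by depth, and DU145 overexpression by its 2 libraries.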

Other observations

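EDN1, which encodes endothelin-1, a tumour-secreted stimulus of osteoblasts, was, like JAG1, COL1A1 and NOG, singled out after its values were seen. Its log2 fold change was -1.11 in PC3 (edgeR adjusted p = 0.000200) and 1.29 in DU145 (edgeR adjusted p = 0.0232), and the difference between the lines was 2.39 (standard error 0.419, edgeR adjusted p = 0.000371). JAG1, a Notch ligand, was -0.22 in PC3 (edgeR adjusted p = 8.58e-09) and 1.25 in DU145 (edgeR adjusted p = 0.000270). COL3A1, a fibrillar collagen on the list of osteoblast and fibroblast markers, rose in PC3 from 3.84 ± 0.126 CPM (SD, n = 3) to 15.1 ± 2.27 (SD, n = 3; log2 fold change 1.98, edgeR adjusted p = 1.79e-17), while COL1A1 of the same list went from 25.5 ± 1.22 to 18.4 ± 0.344 CPM (log2 fold change -0.47, edgeR adjusted p = 3.96e-07). The noggin gene NOG, an inhibitor of bone morphogenetic proteins, held 3505 counts in PC3 control and 2 in DU145 control.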
